A study of Mus musculus with 14 samples.

Results

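The cytosolic ribosome and the factors that load and drive it are described here in mouse brainstem gliomas with and without Ezh2. The 35 genes are those in the table of the loss-of-function experiment whose symbol begins as a ribosomal protein (Rpl, Rplp, Rps), an initiation factor (Eif) or an elongation factor (Eef), with a mean normalized count of at least 10 in EZH2 WT tumors and no place in the table of the gain-of-function experiment. S6 kinases were left out. They are 35 of 3533 genes, and the table holds only genes that the authors called different between these same groups at an FDR under 0.05. It has 3553 lines, because 19 gene identifiers stand on several lines with equal values under different symbols. Each was counted once, and no member is among them. The choice rests on the contrast described below, so every difference between the groups, and every count of genes past a threshold, describes genes already chosen for differing and is no independent test. A normalized count is a number of reads divided by a size factor of its library. No gene with such a symbol stands among the 294 genes of the gain-of-function table, and values of those tumors were not analysed here.

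Tumors were induced with RCAS viruses, which enter only cells that carry the receptor Tv-a, here driven by the Nestin promoter. The EZH2 WT group (n = 3) is Ntv-a;p53fl/fl with wild-type Ezh2, and the EZH2 LOF group (n = 4, numbered 13 to 16) is the same with Ezh2 floxed on both alleles. Both groups received RCAS-PDGF-B and RCAS-Cre, so by design all tumors overexpress PDGF-B and lack p53, and the groups differ in Ezh2 and in their parents. The labels give C57BL/6 for all of them, while the methods name a mixed B6;129S1 stock as the source of the floxed allele. Cre acts only in infected cells, and the study notes that the floxed exons were deleted only in part in this model. It also reports reduced EZH2 staining and H3K27me3 staining almost wholly lost in Ezh2-deleted tumors, which were made with an shRNA against p53. The age of each mouse is not given in the sources used here. Ezh2 itself is not among the genes read here, so the labels were not checked against it.

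The ribosome translates mRNA with a small subunit that reads the message and a large subunit that joins amino acids. Initiation factors place the small subunit at the start codon, and elongation factors bring in each charged tRNA and move the ribosome along. Many of these mRNAs begin with a C and a run of pyrimidines, the TOP motif through which mTOR signaling adjusts their translation. Their protein-coding genes have also given rise to many processed pseudogenes, copies of the mRNA elsewhere in the genome. The EIF2 kinases and the EIF4E-binding proteins, both represented below, act as brakes on initiation.

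Reads in the listed genes ranged from 2763245 to 3685186 in EZH2 WT and from 281847 to 1842891 in EZH2 LOF, with replicates 13 and 14 the lowest. The size factors were 1.80 to 2.64 in EZH2 WT and 0.218 to 1.36 in EZH2 LOF, so 1 read is worth up to 4.58 normalized counts in EZH2 LOF replicate 13 and at most 0.557 in EZH2 WT. Of the tumor lineage genes, Olig2 and Pdgfra were the listed ones, and their summed level was 17233 to 28544 in EZH2 WT and 11192 to 13359 in EZH2 LOF. Of 13 markers of mature oligodendrocytes 5 were listed, all lower, at 3613 to 4791 and 2105 to 2540. Both astrocyte genes that were listed of 8 were lower (5073 to 8866 and 3314 to 4501), and so were both neuron genes of 12 (996 to 1479 and 513 to 943) and Pdgfrb, the only listed one of 9 endothelial and mural markers (229 to 503 and 45.8 to 191). No red blood cell gene of 5 was listed. All of these listed markers had lower means, as did 27 of the 35 genes below, while 8 of the 35 were higher. The part of cell types in the results was not tested. In bulk tumor RNA, fewer cells of a type and less RNA per cell cannot be told apart.

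Most of the 35 genes had lower means in EZH2 LOF tumors. All 3 elongation factors and all 9 initiation factors were lower, as were 11 of 18 ribosomal proteins, 2 of 3 regulators of initiation, the ribosomal-protein-like gene Rpl7l1 and the pseudogene Rpl14-ps1, while 7 ribosomal proteins and Eif4ebp2 were higher. In all, 27 of 35 were lower and 8 higher, against 1806 lower and 1727 higher over the whole table. Summed over all members, normalized counts were 23527, 28711 and 29799 in EZH2 WT and 18905, 20933, 20122 and 19385 in EZH2 LOF replicates 13 to 16. Every EZH2 LOF tumor was below every EZH2 WT tumor in this sum, which is made up mostly of the 3 elongation factors. The ratio of mean sums was 0.725.

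The 35 genes are not the whole machinery. The GENCODE M21 annotation of mm10 has 92 protein-coding genes with ribosomal protein symbols, of which 20 were in the table, and 68 with initiation or elongation factor symbols, of which 15 were. The table as a whole holds 3533 genes, of 13391 that the authors tested. Tested and annotated genes are different bases, so nothing is read from these counts. Genes outside the table were not analysed here. Near the minimum level of 10 in EZH2 WT, the genes just inside were Rps27a at a mean of 13.3 and Rps13 at 13.98.

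With limma, whose log2 fold changes are on the log2(normalized count + 1) scale and understate low genes, 6 members passed an adjusted p under 0.05 as higher and 16 as lower. Over the 3533 genes fitted, 31.2% passed as higher and 29.7% as lower, and since the table was chosen on this contrast nothing is read from either share. The 2 groups did not overlap for 8 higher and 24 lower members, beside 41.9% and 44.6% of the listed genes. The 3 members with overlap were Eif2b1, Rps15 and Rpl14-ps1. The median log2 fold change was -0.49 over the members and -0.33 over all listed genes.

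**Figure D1:**
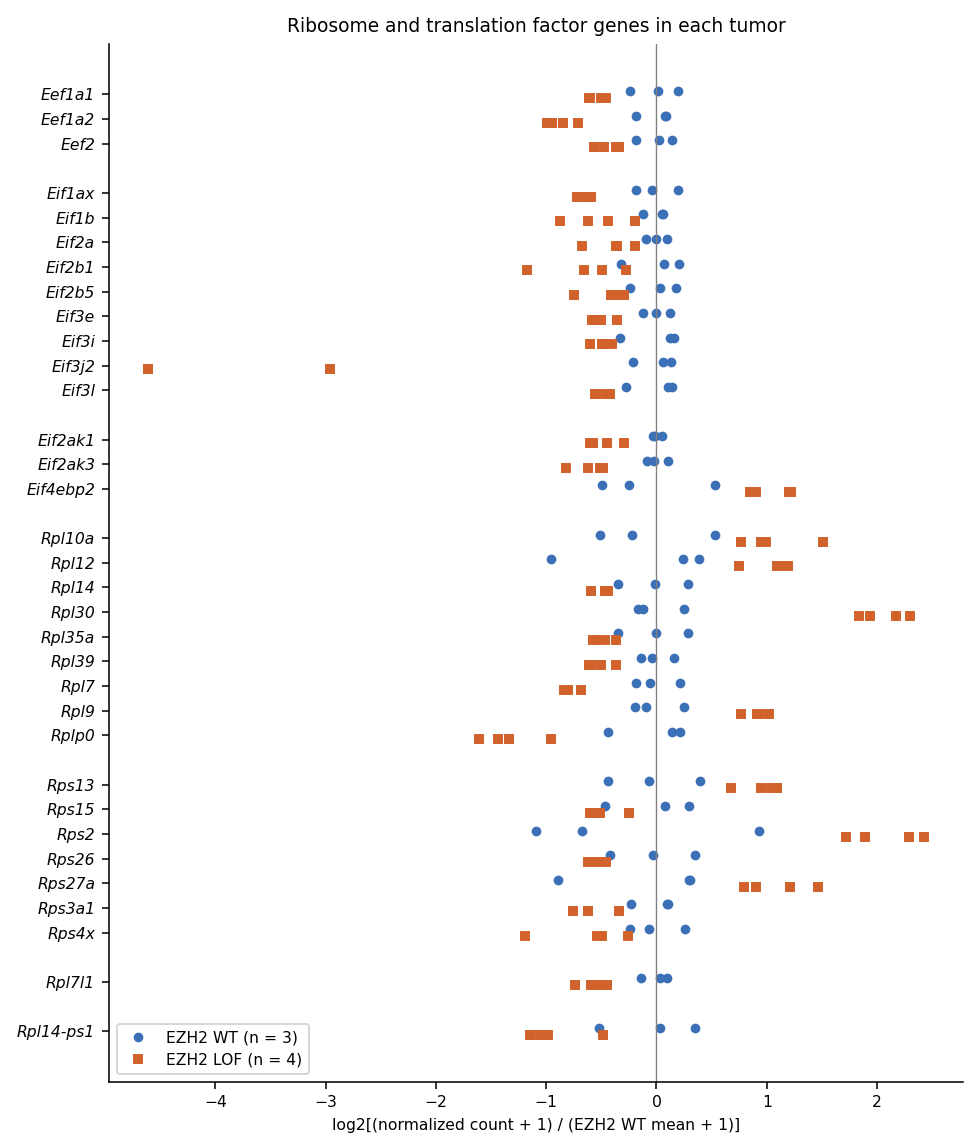
Level of 33 of the 35 genes in each tumor, as log2 of (normalized count + 1) over (EZH2 WT mean + 1), on the horizontal axis, with circles for the 3 EZH2 WT and squares for the 4 EZH2 LOF tumors, in blocks by role. In EZH2 LOF, elongation and initiation factors lie to the left of the EZH2 WT circles, apart from an overlap for Eif2b1, ribosomal proteins lie on both sides, and the 3 EZH2 LOF tumors with no read of Eif3j2 fall on 1 square.

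The elongation factors carried most of the counts. Eef1a1 encodes the common form of eEF1A, which delivers charged tRNA to the ribosome. Its normalized count was 5806, 6929 and 7837 in EZH2 WT and 4514, 4978, 4845 and 4487 in EZH2 LOF replicates 13 to 16. All 4 EZH2 LOF tumors were below the lowest EZH2 WT tumor, with means of 6857 ± 1018 (SD, n = 3) and 4706 ± 244 (SD, n = 4) and a log2 fold change of -0.53 ± 0.16 (SE).

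Eef1a2 encodes the form of eEF1A known from neurons and muscle. It measured 849, 844 and 701 in EZH2 WT and 412, 443, 400.2 and 485 in EZH2 LOF. The groups lay well apart, and the log2 fold change of -0.87 ± 0.12 (SE) was the largest of the elongation factors. Per kilobase of exon, the level in EZH2 WT was 2751 for Eef1a1 and 383 for Eef1a2. The coding sequences of this pair are 80.7% identical over 1380 aligned bases, and none of the 50-base words of Eef1a2 occurs in another gene, so reads of this length separate it from Eef1a1. Of the words of the principal Eef1a1 mRNA, 60.6% occur in other genes.

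Eef2 encodes the factor that moves the ribosome to the next codon. Its values were 7584, 8747 and 9471 in EZH2 WT and 5811, 6794, 6660 and 6170 in EZH2 LOF, without overlap. The log2 fold change was -0.43 ± 0.16 (SE), the smallest of the elongation factors.

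Eif1ax encodes a form of eIF1A and Eif1b a relative of eIF1, both of which help the small subunit scan for a start codon. Eif1ax had means of 916 ± 124 in EZH2 WT and 585 ± 21.7 in EZH2 LOF, and Eif1b had 284 ± 19.9 and 199 ± 39.5 (SD, n = 3 and 4). Eif2b1 and Eif2b5 encode subunits of eIF2B, which recharges eIF2 with GTP after each round. Their means were 166 and 278 in EZH2 WT and 108 and 205 in EZH2 LOF. For Eif2b1 the groups overlapped, because EZH2 LOF replicate 14 (137) stood above EZH2 WT replicate 1 (133).

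Eif2a encodes a factor that can bring initiator tRNA to the small subunit and is not a subunit of eIF2. It measured 314, 336 and 295 in EZH2 WT and 275, 197, 244 and 246 in EZH2 LOF, a ratio of means of 0.762, nearest to 1 among the initiation factors. Eif3e, Eif3i and Eif3l encode subunits of eIF3, the large scaffold on the small subunit. Their ratios of means were nearly equal at 0.711, 0.710 and 0.711, and none of them overlapped between groups. Summed over the 9 genes, the level was 3261, 4111 and 3774 in EZH2 WT and 2521, 2629, 2594 and 2530 in EZH2 LOF.

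Eif3j2 stood far apart from these. It encodes a form of eIF3j, a loosely bound partner of eIF3. Its normalized counts of 24.5, 25.8 and 20.2 in EZH2 WT are 44, 68 and 39 reads, and the values in EZH2 LOF are 0, 2.14, 0 and 0, a single read in replicate 14. Scaled by the size factors, EZH2 WT was 68.4-fold higher, with an exact 95% interval from 12.1 to 2719 that covers counting error only. The place of this gene is not settled. The deposited table puts it at chr2:122028582-122053631 on the plus strand of mm10, while GENCODE M21 gives its identifier a place on chromosome 18 and has the paralog Eif3j1 at chr2:122028546-122056598. The other 34 members lie in the table where GENCODE has them. Over 781 aligned coding bases the paralogs are identical, and 91.8% of the 50-base words of Eif3j2 occur in another gene, mostly Eif3j1. Eif3j1 was not among the listed genes. Which locus the reads came from cannot be told apart.

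**Figure D2:**
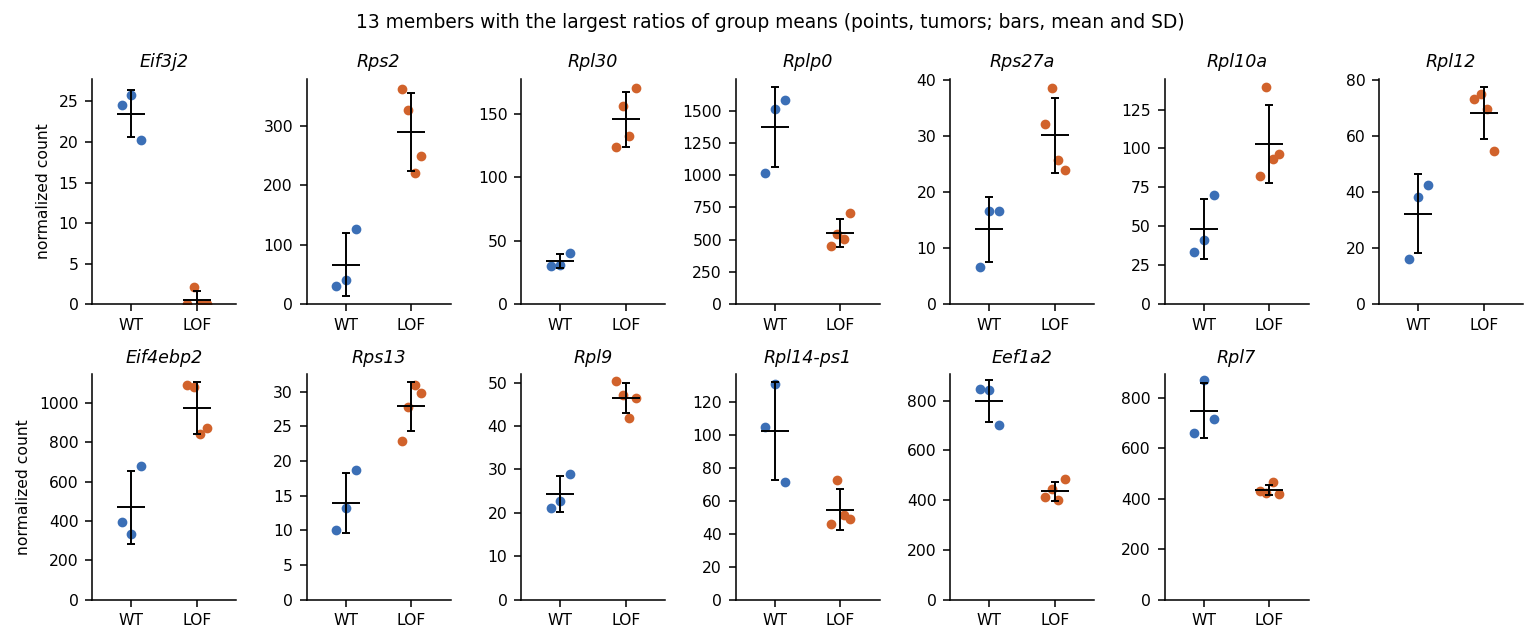
Normalized counts (vertical axes, from 0) of 13 genes with the largest ratios of group means in EZH2 WT (n = 3) and EZH2 LOF (n = 4) tumors, points for tumors and bars for mean and SD. Rps2 spans 30.6 to 127 in EZH2 WT and 221 to 362 in EZH2 LOF, and Rpl14-ps1 is the only one of these genes whose groups overlap.

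The regulators moved in opposite directions. Eif4ebp2 encodes a protein that binds the cap-binding factor eIF4E and holds back initiation until mTOR phosphorylates it. It measured 394, 333 and 678 in EZH2 WT and 1091, 1081, 842 and 874 in EZH2 LOF. It was the only higher member outside the ribosomal proteins and the only higher one with a mean above 100 in EZH2 WT, with a log2 fold change of 1.11 ± 0.22 (SE). The groups did not overlap, although EZH2 WT replicate 3 stood well above the others of its group. None of the 50-base words of Eif4ebp2 occurs in another gene.

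Eif2ak1 (HRI) and Eif2ak3 (PERK) encode kinases that phosphorylate eIF2 and slow initiation, HRI known for its response to low heme and PERK for that to unfolded protein in the endoplasmic reticulum. Eif2ak1 had means of 240 ± 7.10 and 172 ± 17.1, and Eif2ak3 had 559.6 ± 38.2 and 368 ± 37.7 (SD, n = 3 and 4). Both were lower in every EZH2 LOF tumor than in any EZH2 WT tumor. On the opposite strand, other genes overlap 11.6% of the exon bases of Eif2ak1 and 8.05% of those of Eif2ak3. The libraries were stranded, and the strand setting of the counting is not given in the sources used here.

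Among ribosomal proteins of the large subunit, Rplp0 differed most toward lower values. It encodes the base of the stalk on which elongation factors dock and is widely used as a reference gene in quantitative PCR. Its values were 1014, 1516 and 1585 in EZH2 WT and 449, 542, 506 and 705 in EZH2 LOF. The highest EZH2 LOF tumor was well under the lowest EZH2 WT tumor, and the log2 fold change was -1.31 ± 0.19 (SE).

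Rpl7 encodes a protein of the large subunit and Rpl7l1 a relative linked to the assembly of that subunit. Rpl7 measured 661, 871 and 718 in EZH2 WT and 431, 424, 466 and 419.8 in EZH2 LOF. Rpl7l1 measured 347, 393 and 411 in EZH2 WT and 229, 266, 281 and 254 in EZH2 LOF. Neither pair of groups overlapped, and the log2 fold changes were -0.78 ± 0.12 for Rpl7 and -0.57 ± 0.13 (SE) for Rpl7l1. The other lower genes of the large subunit, Rpl14, Rpl35a and Rpl39, had nearly equal ratios of means at 0.712, 0.712 and 0.698.

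On the small subunit, the lower genes Rps15, Rps26, Rps3a1 and Rps4x had ratios of means from 0.667 to 0.718. For Rps15 the groups overlapped, because EZH2 WT replicate 1 (492) was below EZH2 LOF replicate 14 (574). Over the 11 lower ribosomal proteins, summed levels were 4259, 6233 and 5673 in EZH2 WT and 3057, 3270, 3259 and 3345 in EZH2 LOF, a ratio of means of 0.600.

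The 7 higher ribosomal proteins were Rpl9, Rpl10a, Rpl12 and Rpl30 of the large subunit and Rps2, Rps13 and Rps27a of the small subunit, the last made as a fusion with ubiquitin. Rps2 measured 30.6, 41.3 and 127 in EZH2 WT and 362, 328, 221 and 249 in EZH2 LOF, a ratio of means of 4.37. The groups did not overlap, while EZH2 WT replicate 3 was far above the other EZH2 WT tumors. Rpl30 measured 30.1, 31.1 and 40.4 in EZH2 WT and 124, 156, 132 and 171 in EZH2 LOF. It was steady within both groups, and its ratio of means was 4.31.

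The other 5 were closer to a doubling. Rps27a measured 6.68, 16.7 and 16.6 in EZH2 WT and 32.1, 38.5, 25.7 and 23.9 in EZH2 LOF. Rpl10a measured 33.4, 40.96 and 69.9 in EZH2 WT and 82.5, 139, 93.4 and 96.6 in EZH2 LOF. Both kept their groups apart, with EZH2 WT values uneven. Rpl12 measured 16.1, 38.3 and 42.4 in EZH2 WT and 73.3, 74.9, 69.9 and 54.9 in EZH2 LOF. Rps13 measured 10.02, 13.3 and 18.6 in EZH2 WT and 22.9, 27.8, 30.9 and 29.8 in EZH2 LOF. Both were lowest in EZH2 WT replicate 1. Rpl9 measured 21.2, 22.8 and 28.98 in EZH2 WT and 50.4, 47.1, 41.9 and 46.5 in EZH2 LOF, and its ratio of means of 1.91 was the smallest of the 7. These values rest on few reads in the shallowest tumor, from 5 for Rps13 to 79 for Rps2 in EZH2 LOF replicate 13.

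The 2 sets of ribosomal proteins differ in EZH2 WT level. That level is also the denominator of the ratio that splits the sets, so level and direction are not independent. All 7 higher genes had a mean between 13.3 and 66.4 in EZH2 WT, and all 11 lower ones between 178 and 1371. Per kilobase of exon, the range was 5.19 to 36.3 for the higher and 57.1 to 1082 for the lower genes, again without overlap. In EZH2 LOF the ranges per kilobase were 10.4 to 158.5 and 40.6 to 776 and overlapped. The whole table has a slope of the same kind: of 938 listed genes with a mean from 10 to under 100 in EZH2 WT, 79.0% were higher in EZH2 LOF, and of 2440 with 100 or more, 34.1% were. Among the members, 7 of 8 in the first class and 1 of 27 in the second were higher.

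**Figure D3:**
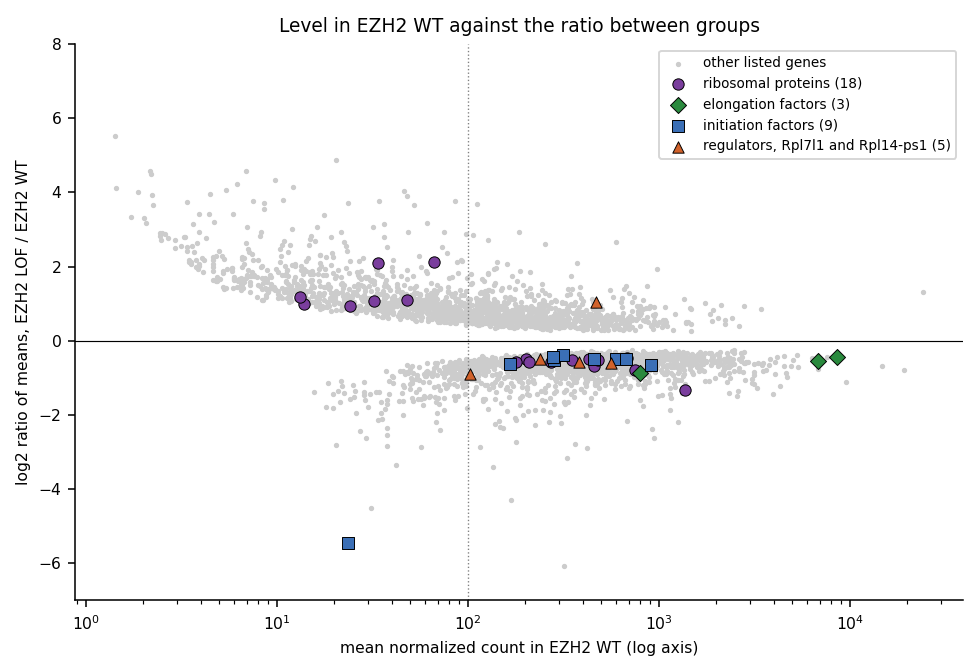
Log2 ratio of group means (EZH2 LOF over EZH2 WT, vertical axis) against the mean normalized count in EZH2 WT (log horizontal axis) for 3530 listed genes in grey, with members marked by role and a dotted line at 100. The 7 higher ribosomal proteins lie left of the line and the 11 lower ones right of it, and the lower members other than Eif3j2 lie between -1.32 and -0.39. The EZH2 WT mean enters both axes.

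Copies elsewhere in the genome bear on how many reads a ribosomal protein gene can be given, because a read that fits several places is not assigned to 1 gene by the usual settings. The share of 50-base words (the read length) of the principal mRNA that occur in another annotated gene was 49.4% to 88.1% for the higher ribosomal proteins, with a median of 82.3%. It was 16.5% to 72.2% for 10 of the lower ones, with a median of 40.4%, and Rpl7 had no principal transcript to read. Over all annotated exons of each gene the order of the sets was the opposite, with medians of 20.8% for the higher and 30.3% for the lower ones, and 3 of 7 against 7 of 11 above 25%. For the principal mRNA of 16 other members the median was 0.930%, and among 2484 listed genes it was 0, with 8.86% of them above 25%. These shares ignore strand and also count genes that overlap at the same place, so they do not measure copies elsewhere alone. Rpl30 holds the median of 82.3%. Over its annotated transcripts 890 words are shared, 558 of them with the gene on its opposite strand. Gene levels in EZH2 WT were also divided by the words found in no other gene. Per 1000 such words of the principal mRNA they were 41.3 to 594 for the higher and 340.1 to 2478 for the lower ribosomal proteins, so the sets overlap. Per 1000 such words of all annotated transcripts they were 5.89 to 59.9 and 56.8 to 1687. On that scale only Rps2 and Rpl35a overlap. Whether shared reads were dropped, and their part in the direction, was not tested.

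The number of annotated pseudogenes that share such words was 71 for Rps2, 19 for Rpl35a and 18 for Eef1a1. Higher ribosomal proteins shared words with 5 to 71 pseudogenes and lower ones with 1 to 19. Apart from Rps2, the higher ones ranged from 5 for Rpl10a to 16 for Rpl30, within the range of the lower set. The coding sequence of Rps2 is 99.4% identical to that of Rps2-ps10 over 879 bases. Rpl30, Rpl12, Rps2 and Rps13 also have annotated small nucleolar RNA genes over 3.23% to 7.32% of their exon bases on the same strand. Lower members, ribosomal proteins among them, also have annotated genes on the same strand, as over 4.33% of the exon bases of Eef1a1. For Rpl30, a gene on the opposite strand covers 20.4% of the exon bases, and reads of the pair can be told apart only if the counting used strand.

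**Figure D4:**
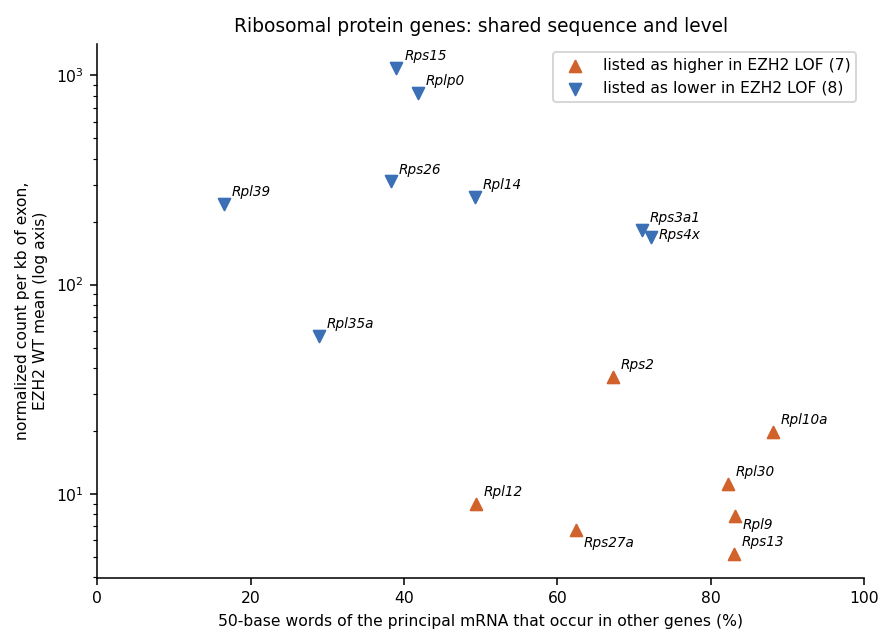
Share of 50-base words of the principal mRNA that occur in other genes (horizontal axis, percent) against the EZH2 WT mean per kilobase of exon (log vertical axis) for 15 ribosomal protein genes, triangles up for those higher and down for those lower in EZH2 LOF. All higher genes lie below all lower genes in level, while the shares of the 2 sets overlap between 49.4% and 72.2%.

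Rpl14 and its processed pseudogene Rpl14-ps1 were both in the table. Rpl14, of the large subunit, measured 340.2, 527 and 429.5 in EZH2 WT and 312, 287, 318 and 315 in EZH2 LOF. Rpl14-ps1, on chr7:45324957-45325651, measured 105, 131 and 71.4 in EZH2 WT and 45.8, 72.8, 51.5 and 48.9 in EZH2 LOF. Both were lower in EZH2 LOF, with overlap for the pseudogene only, and both were highest in EZH2 WT replicate 2. The pseudogene matches 644 of 648 aligned coding bases, and 78.3% of its words occur in other genes. A stretch of coding bases 406 to 435 of Rpl14 (plus strand of chromosome 9) and the same stretch of the pseudogene (plus strand of chromosome 7) show how little separates them. A second stretch, coding bases 202 to 231 of Rps3a1 (minus strand of chromosome 3), is shown beside its pseudogene Rps3a2 (minus strand of chromosome 14), which matches 788 of 792 bases. Capitals mark the bases that differ, and the sequences are those of GENCODE M21.
Rpl14: ctgaaagcttctccCaaAaaagcagctgtg
Rpl14-ps1: ctgaaagcttctccTaaGaaagcagctgtg
Rps3a1: gaagtgagccttgcTgatctacagaatgat
Rps3a2: gaagtgagccttgcCgatctacagaatgat

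Sequence around the RefSeq start was searched for a TOP-like run on the strand of the gene. Such a run is a C followed by at least 6 bases that are each C or T. It had to begin within 20 bases before or after that start. A start sequence was at hand for 26 of the 35 members. Such a run was found for 11 of 26 members (42.3%), beside 22.99% of 27025 genes and 25.8% of 2712 listed genes. All 3 elongation factors had one, as did 5 of 8 lower and 1 of 5 higher ribosomal proteins and 2 of 9 initiation factors and regulators. Rps2, Rpl12 and Rps13 of the higher set had a longest run of 6 bases, and Rplp0 of the lower set had 5. The contrast between these sets therefore depends on the length required. It also depends on the place allowed, because a run that begins before the annotated start lies wholly or partly outside the annotated mRNA. Runs began at -20 for Rpl39, -19 for Rps15, -15 for Eif2b5, -8 for Rpl14 and -5 for Rpl35a and Eef1a1. Whether any of the runs opens the mRNA was not tested. The windows are from RefSeq on GRCm38.p6, with the run in capitals, for 2 elongation factors, 1 lower and 1 higher ribosomal protein, and for Rps2, where the longest run has 6 bases. They lie at chr9:78481710-78481739 on the minus strand (Eef1a1), at chr10:81176634-81176663 (Eef2), chr9:120571501-120571530 (Rpl14), chr17:28328572-28328601 (Rpl10a) and chr17:24720055-24720084 (Rps2) on the plus strand.
Eef1a1: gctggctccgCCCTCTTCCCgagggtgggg
Eef2: gacgtcagcggtCTCTTCCgccgcagccgc
Rpl14: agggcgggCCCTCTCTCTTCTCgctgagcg
Rpl10a: aagcgctctgCCTTCTTTCCggtttccgcg
Rps2: cgagatctcgcgCTTCTTggagcactataa

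The ribosomal proteins also varied together among the EZH2 WT tumors, a comparison within 1 group. All 18 were lowest in EZH2 WT replicate 1, where their level was 0.461 to 0.907 of the mean of the 3 tumors. Over all members, 28 of 35 (80.0%) were lowest there, against 32.7% of the listed genes. The higher set was highest in EZH2 WT replicate 3 for 6 of 7 genes, and the lower set in replicate 2 for 8 of 11. Initiation factors were highest in replicate 2 for 8 of 9. Of 3533 listed genes, 1247 were highest in replicate 3 and 855 in replicate 2. Genes of 1 tumor share its size factor and its cells, so they do not count as independent, and the part of either was not tested.

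The coefficient of variation was larger in EZH2 WT than in EZH2 LOF for 17 of 18 ribosomal proteins, with medians of 22.5% and 12.6%. Over all listed genes it was larger in EZH2 WT for 58.4%. All 18 ribosomal proteins were lowest in the same tumor, EZH2 WT replicate 1, so the 17 do not count as independent. Rps4x, the exception, varied by 18.2% in EZH2 WT and 25.3% in EZH2 LOF, where replicate 13 (119) was lowest with 26 reads. For the 9 initiation factors it was larger in EZH2 WT for 5.

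**Figure D5:**
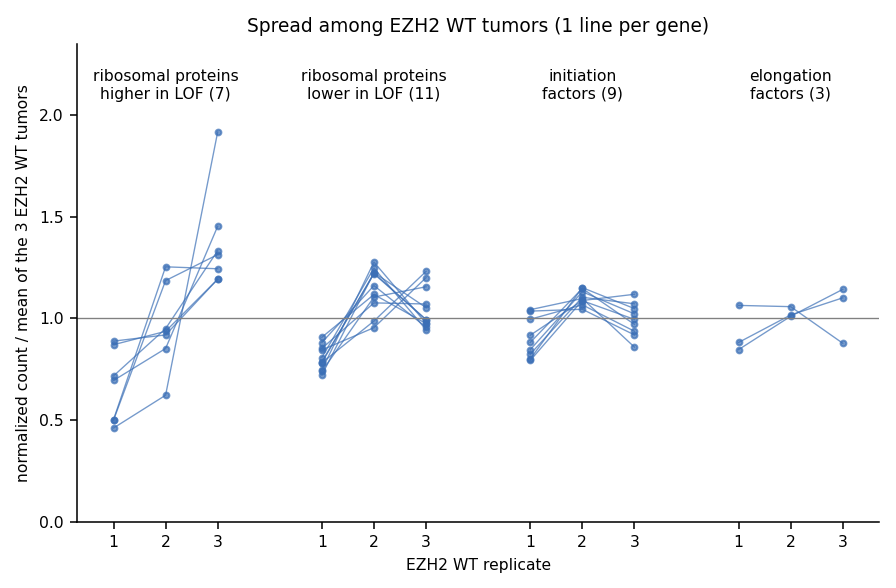
Normalized count over the mean of the 3 EZH2 WT tumors (vertical axis) in EZH2 WT replicates 1 to 3 (horizontal axis), with 1 line per gene that only joins its values, for 4 sets of members. Every ribosomal protein is below 1 in replicate 1, at 0.461 to 0.907, and the higher set reaches 1.92 in replicate 3.

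Genes around this machinery were looked up in lists. Those in the table carry the same selection as the members, so the limma calls given here are read against 31.2% called higher and 29.7% called lower over all listed genes and show nothing about a list. Of 22 cytosolic tRNA synthetases, which charge tRNAs with amino acids, 5 were listed, all with lower means, and 2 of them passed limma as lower. Rars was at a ratio of means of 0.706 and Eprs at 0.727. Of 30 other translation factors 8 were listed, 3 passed as higher and 2 as lower. Gigyf1, which with its partners represses translation of some mRNAs, was at 2.92, Pabpc1, the main poly(A)-binding protein, at 1.68 and Zfp598, a sensor of collided ribosomes, at 1.55, while Paip1, a partner of Pabpc1 that promotes translation, was at 0.661.

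Of 62 ribosome biogenesis genes 6 were listed. Fbl (fibrillarin, which methylates ribosomal RNA) at a ratio of 2.40 and Tcof1 (treacle, which promotes transcription of ribosomal RNA) at 1.59 passed as higher, and Rpp30, a subunit of RNase P, at 0.526 and Sbds, which helps to mature the large subunit, at 0.628 passed as lower. Of 28 genes of the S6 kinases and mTOR signaling 8 were listed. Rps6ka2, of the RSK family, at 1.99, the S6 kinase Rps6kb2 at 1.66 and Tsc1, a brake on mTOR, at 1.49 passed as higher, and Sesn1, another brake, passed as lower at 0.682. Of 15 genes of the integrated stress response 2 were listed and both had higher means and limma calls, the eIF2 kinase activator Gcn1l1 at 1.75 and the stress sensor Ern1 at 1.59. That list leaves out the members, among them the eIF2 kinases Eif2ak1 and Eif2ak3 and the eIF2B genes Eif2b1 and Eif2b5, all with lower means. Of 15 genes that accompany ribosomes or carry TOP motifs 3 were listed, with Hnrnpa1 higher at 1.94 and Cct4 lower at 0.732.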

How the data were processed

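RNA-seq of 7 of the 14 tumors was used. Methods and submitters' notes name FastQC, Trim Galore (which also removed reads of rRNA), STAR on mm10, HTSeq with an Ensembl annotation and DESeq2, without versions, for stranded, rRNA-depleted libraries of 50 bp single reads. The deposited signal values are the authors' gene counts over each library's size factor. The deposited fold changes (log2), Wald scores and p-values hold the authors' comparison and were not used, except that raw and adjusted p-values gave the number of genes tested (13391). Each value was a whole multiple of 1 read's worth for 100% of genes within 0.001 reads. A coded check of these whole reads passed for 5 of the 7 libraries, not for EZH2 WT replicate 1 and EZH2 LOF replicate 15. Reads in the listed genes are not library depth.

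Groups were compared with limma 3.58.1 (R 4.3.3) on log2(value + 1), two-sided, with Benjamini-Hochberg adjustment over 13391 genes. Each library is labelled as a tumor, and errors measure the spread between these libraries. Alternatives were pseudocounts of 0.5 and 5, a mean of at least 50, rescaling, edgeR 4.0.16 and DESeq2 1.42.0 on recovered reads, and leaving out libraries. Values in every library were given for the 14 members with the largest ratio of means, elongation factors and paralogs, and up to 4 passing genes of each list were named. Some genes that this rule would name are not reported here. Other members' values were chosen after they were seen. Members and lists were chosen with earlier results of these data known. Word sharing, exon lengths and overlaps used GENCODE M21.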

Additional observations from a re-analysis of the deposited data

Results flagged for a closer look

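In the 4 EZH2 LOF tumors, 1 of the 35 members had a tumor whose gap to the others was the whole range of the group. This was Eif3j2, at 2.14 in EZH2 LOF replicate 14 and at 0 in the others. The value is 1 read, and any group with 1 tumor above 0 and the others at 0 would stand out in the same way.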

How the results depend on the processing

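No member changed direction under any alternative run. Leaving out 1 tumor moved the number of members called higher, 6 in the full set, to between 3 and 7 (3 without EZH2 WT replicate 1 or 2 or EZH2 LOF replicate 14, 15 or 16). The number called lower, 16, ranged from 6 to 19 (6 without EZH2 WT replicate 2 or EZH2 LOF replicate 16, 7 without replicate 15 and 9 without replicate 13). The members without overlap numbered 32 to 35, and the median log2 fold change ranged from -0.63, without EZH2 WT replicate 1, to -0.43, without EZH2 WT replicate 2. Without EZH2 LOF replicates 13 and 14 the calls came to 1 higher and 1 lower, and over all listed genes to 182 higher and 89 lower in place of 1102 and 1048, with fewer samples in the fit. The members' median was then -0.50, and none overlapped. On recovered reads, edgeR with the authors' size factors called 2255 of 3533 listed genes and DESeq2 called 2771, beside 2150 with limma. Of the members they called 6 higher and 17 lower, and 6 higher and 21 lower. The 6 of edgeR held Rps13 (edgeR adjusted p 0.0445) in place of Rpl12 (0.0544). With limma on libraries rescaled to a median ratio of 1, 6 members were called higher and 13 lower, and 31 did not overlap. The cause of these differences was not tested. With a mean of at least 50, 31 members could be fitted, and 4 were called higher and 13 lower. No paired analysis was possible because the groups compared share no replicate numbers. Depth limits the members with few reads most: in EZH2 LOF replicate 13, where a read is worth 4.58 normalized counts, Eif3j2 had 0 reads, Rps13 had 5, Rps27a 7, Rpl14-ps1 10 and Rpl9 11.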
